A study of Mus musculus with 8 samples.

Results

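Antigen presentation by MHC class I was examined through 9 genes, taken by name for their known roles: H2-K1, H2-D1 and H2-T23 (rows H2.K1, H2.D1 and H2.T23 of the count table), B2m, Tap1, Tap2, Tapbp, Nlrc5 and Erap1. All 9 were present among the 22065 named genes of the table, and all 9 passed the expression filter that left 16444 genes for testing. Counts came from bulk RNA-seq of hematopoietic stem cells (HSCs) sorted from the bone marrow of C57BL/6 mice aged 8 to 10 weeks, with 100 cells per library, 4 libraries labelled Mitol KO and 4 labelled Control. The Mitol KO mice were Mitol Flox/Flox; MX1-cre+ (MitolΔ/Δ) and the controls Mitol Flox/Flox; MX1-cre- littermates. Both groups had received Poly:IC, and the HSCs were taken 1 week later. Poly:IC is a double-stranded RNA mimic that induces type I interferon, and the MX1 promoter that drives Cre is itself interferon-inducible, so each library came from a mouse exposed to an inducer of class I genes. The comparison therefore concerned the loss of Mitol, together with the Cre transgene, on top of that exposure, and no mice without Poly:IC were among the 8 samples. Only the MitolΔ/Δ mice carried MX1-cre, so effects of Cre and of Mitol loss cannot be told apart.

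MHC class I molecules carry peptides cut from intracellular proteins to the cell surface, where CD8 T cells and NK cells read them. Proteasomes cut the peptides, the TAP transporter brings them into the endoplasmic reticulum (ER), trimming enzymes shorten them, and a loading complex places them on a heavy chain paired with β2-microglobulin. Transcription of the pathway is driven by NF-κB, by interferon regulatory factors (IRFs) and by NLRC5, a coactivator that acts with the RFX, CREB/ATF and NF-Y factors bound to the X1, X2 and Y boxes of class I promoters. HSCs express class I molecules constitutively.

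The promoters of the classical heavy chains, of B2m and of H2-T23 are shown because they carry some or all of the boxes through which these regulators are known to act. Each run is the 200 bases before a RefSeq transcription start on GRCm38.p6, 5′ to 3′, with capitals marking an NF-κB site (GGGGATTCC), an IRF element (AANNGAAA), the core of the X2 box (TGACG) or a Y box (ATTGG), each searched on both strands.
H2-K1 (chr17:34000348-34000547, minus strand): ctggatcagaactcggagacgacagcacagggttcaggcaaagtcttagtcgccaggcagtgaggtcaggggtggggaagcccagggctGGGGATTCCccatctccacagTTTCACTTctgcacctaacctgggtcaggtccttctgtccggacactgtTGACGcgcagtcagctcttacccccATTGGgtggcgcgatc
H2-D1 (chr17:35262894-35263093, plus strand): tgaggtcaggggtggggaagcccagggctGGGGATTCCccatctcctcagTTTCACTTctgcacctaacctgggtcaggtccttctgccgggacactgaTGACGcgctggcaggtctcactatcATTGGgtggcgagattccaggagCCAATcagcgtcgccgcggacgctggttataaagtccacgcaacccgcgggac
B2m (chr2:122147487-122147686, plus strand): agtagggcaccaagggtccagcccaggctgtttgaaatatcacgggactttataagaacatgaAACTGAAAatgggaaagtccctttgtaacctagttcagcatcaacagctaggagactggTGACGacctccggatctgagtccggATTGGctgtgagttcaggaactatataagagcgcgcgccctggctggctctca
H2-T23 (chr17:36032702-36032901, minus strand): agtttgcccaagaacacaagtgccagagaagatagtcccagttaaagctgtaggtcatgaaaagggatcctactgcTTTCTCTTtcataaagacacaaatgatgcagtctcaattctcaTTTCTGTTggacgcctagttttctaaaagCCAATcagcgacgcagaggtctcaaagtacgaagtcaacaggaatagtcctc
The H2-K1 window is that of the first of its RefSeq starts, and H2-K1 and H2-D1 carried the boxes in the same order. In H2-D1 the NF-κB site began 171 bases before the start, the IRF element 150, the X2 core 101 and the Y boxes 76 and 53 bases before it. B2m had the IRF element, X2 core and Y box at 137, 78 and 53 bases before its start, without the NF-κB letters. H2-T23 had IRF elements at 124 and 81 bases and a Y box at 52 bases before the start, and neither the NF-κB nor the X2 letters. Windows of 250 bases before to 50 after the start were given for 7 of the 9 members, of which 2 held the NF-κB site, 5 the IRF element, 4 the X2 core and 6 the Y box. Over all 32851 RefSeq windows of that length, these motifs were found in 0.25%, 23.9%, 20.8% and 37.4%, and the IRF element, X2 core and Y box together in 1.59%. A match of letters is a description of the sequence and no evidence of binding.

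Counts on named genes summed to between 7214935 and 12398138 per library. The targeted gene Marchf5, which encodes MITOL, had 276, 232, 308 and 281 normalized counts (counts divided by the DESeq2 size factor of the library) in MitolΔ/Δ libraries 1 to 4 and 299, 312, 333 and 262 in control libraries 1 to 4 (log2 fold change -0.15, adjusted p = 0.498). The gene total did not separate the groups, and counts over a whole gene cannot show the loss of single exons. The label of the cells was checked against 14 HSC markers. All 14 were detected, and 5 of them were lower in MitolΔ/Δ HSCs, among them Hlf, Kit, Gata2 and Hoxa9. None was called higher by edgeR, and DESeq2 called 6 as lower and 2 as higher, namely Slamf1, which encodes CD150 (log2 fold change 0.56, adjusted p = 0.0501 in edgeR and 0.0117 in DESeq2), and Ly6a, which encodes Sca-1 (0.76, adjusted p = 0.0605 and 0.0107). Their summed normalized counts were between 37195 and 41412 in MitolΔ/Δ and between 51992 and 58625 in control libraries. In bulk libraries, fewer cells of a type and less RNA per cell cannot be told apart. Nothing in the sources used here says that each library came from a separate mouse, so p-values measure the spread between libraries.

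Class I genes were abundant in these HSCs. The 9 members took between 0.404% and 0.459% of all counts in MitolΔ/Δ and between 0.454% and 0.512% in control libraries, and H2-K1, H2-D1 and B2m together made up 68.2% to 71.8% of the members' counts. Levels between genes were compared as CPM (counts scaled to the library total) per kilobase of exon, with lengths from GENCODE vM39 on GRCm39. In control HSCs, H2-K1 had the highest level at 538 ± 44.6 CPM per kb (SD, n = 4), followed by B2m at 425 ± 22.4 and H2-D1 at 241 ± 20.2. H2-T23, Nlrc5, Tapbp and Tap1 followed at 66.1 ± 2.64, 56.9 ± 2.61, 55.9 ± 3.68 and 44.0 ± 2.12 CPM per kb, and Tap2 and Erap1 came last at 19.8 ± 1.11 and 17.95 ± 1.23. The control libraries of neighbours in this order did not overlap, except for Nlrc5 with Tapbp and for Tap2 with Erap1. In MitolΔ/Δ HSCs the first 3 places were held by the same genes, with H2-K1 (433.5 to 503.2 CPM per kb) and B2m (396.2 to 457.0) now overlapping, while H2-T23 at 45.9 ± 10.6 stood below Tapbp at 52.8 ± 3.52, though with overlapping libraries. The order depends on the length used: per kilobase of coding sequence B2m came before H2-K1 in both groups.

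**Figure D1:**
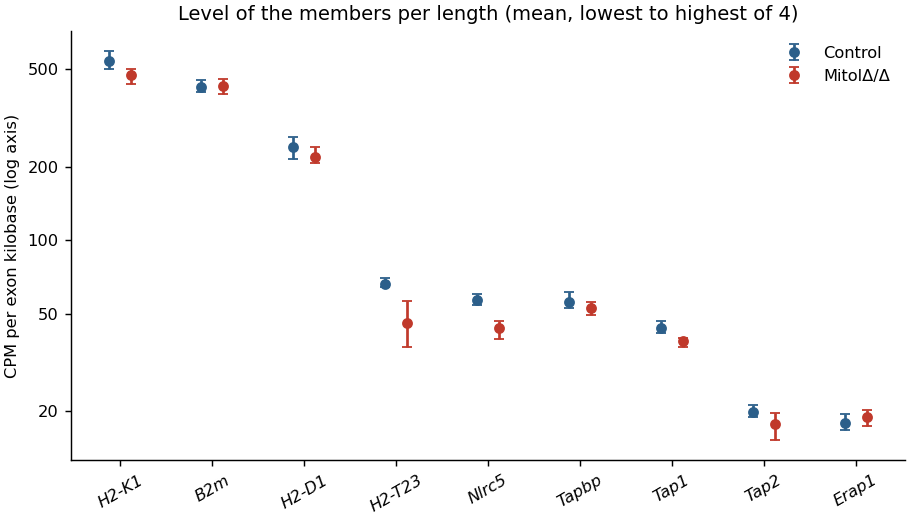
Level of each member as CPM per kilobase of exon on a log axis, for control (blue) and MitolΔ/Δ (red) HSCs, with points for the mean and bars from the lowest to the highest of 4 libraries. H2-K1, B2m and H2-D1 lie above 200 CPM per kb in both groups, and the bars of the groups do not overlap for H2-T23, Nlrc5 and Tap1 (36.75 to 39.7 against 41.9 to 46.9), the last of which overlaps in normalized counts.

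Of the 9 members, 1 was lower in MitolΔ/Δ HSCs (Nlrc5) and 0 were higher at an adjusted p under 0.05 in edgeR's quasi-likelihood test, adjusted by Benjamini-Hochberg over the 16444 genes tested. DESeq2 called 2 as lower (H2-T23 beside Nlrc5) and 0 as higher, where it called 5.78% of those genes as lower and 8.14% as higher. Over those genes, 8.43% were called in either direction and 3.75% as lower, and 1 of 9 is near that background. Of all 1386 calls 616 were lower and 770 higher, whereas upper-quartile normalization gave 845 lower and 594 higher. The groups did not overlap for 2 of the 9 members, Nlrc5 and H2-T23, both lower, against 15.4% of all tested genes. The median log2 fold change of the members was -0.10, against -0.02 over all tested genes, and 7 of the 9 were below 0. An unadjusted edgeR p under 0.05 was reached by 2 lower members, Nlrc5 at 0.00226 and H2-T23 at 0.00517, and by 0 higher members, where 12.8% of all tested genes were lower and 13.6% higher at that threshold. Those shares are the background for the unadjusted counts of the other gene lists. For the edgeR calls of those lists, the background is 3.75% lower and 4.68% higher.

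**Figure D2:**
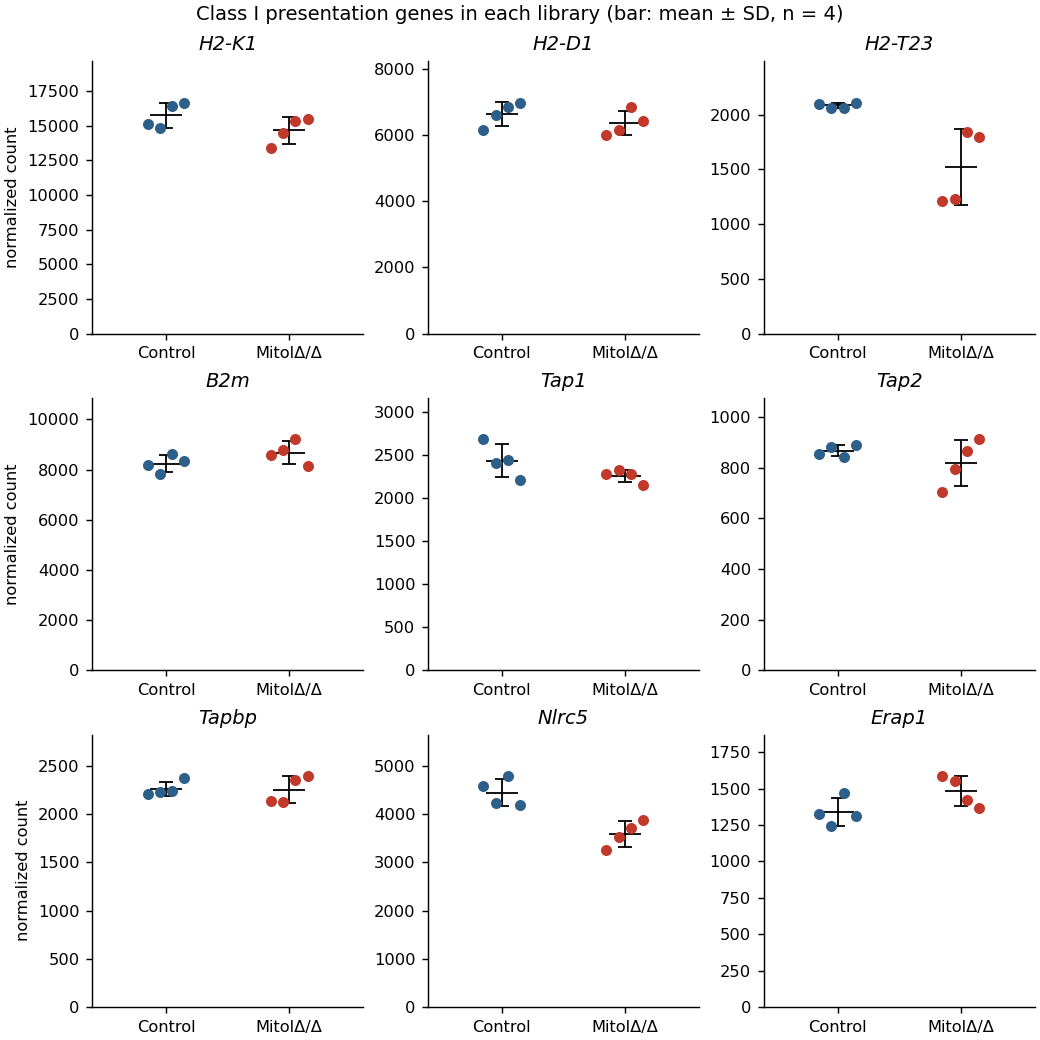
Normalized count of each member in each library (points, in the order of libraries 1 to 4 from left to right), with the mean and SD of 4 libraries, for control (blue) and MitolΔ/Δ (red) HSCs. The groups are apart for H2-T23 and Nlrc5, and overlap for the other 7 genes.

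H2-K1 and H2-D1 encode the classical heavy chains of this strain, H-2Kb and H-2Db. H2-K1, on chromosome 17 of GRCm39 from 34214987 to 34219321, had 13399, 14463, 15321 and 15487 normalized counts in MitolΔ/Δ and 15124, 14816, 16408 and 16665 in control libraries. The lowest MitolΔ/Δ libraries, 1 and 2, were below every control library, and libraries 3 and 4 were within the control range. The log2 fold change was -0.12 (95% interval -0.30 to 0.05, edgeR adjusted p = 0.364). H2-D1, at 35481691 to 35486475 of the same chromosome, had 6001, 6151, 6855 and 6422 normalized counts in MitolΔ/Δ and 6139, 6600, 6828 and 6972 in control libraries. The groups overlapped almost entirely, with a log2 fold change of -0.08 (95% interval -0.25 to 0.09, edgeR adjusted p = 0.562). Their ratio within a library, which does not depend on the scaling between libraries, was 2.31 ± 0.0886 in MitolΔ/Δ and 2.38 ± 0.0928 in control HSCs (SD, n = 4; exact permutation test, 2-sided, p = 0.286, and 0.381 after adjustment for the 4 ratios tested). Of all 75-base windows of their transcripts, 3.96% for H2-K1 and 4.56% for H2-D1 also occur in transcripts of other genes, mainly of the H2-Q and H2-T groups. Exons of genes on the other strand cover 26.8% of the exon bases of H2-K1 and 24.2% of those of H2-D1, and the library kit does not mark strand.

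B2m encodes β2-microglobulin, the light chain that all class I molecules share and need for transport to the surface. It lies on chromosome 2 from 121977957 to 121983594, and none of its 75-base windows is shared. Its normalized counts were 8582, 8786, 9202 and 8133 in MitolΔ/Δ and 8187, 7807, 8599 and 8333 in control libraries. The groups overlapped, with MitolΔ/Δ library 4 below 3 of the controls, and the log2 fold change was 0.06 (95% interval -0.10 to 0.22, edgeR adjusted p = 0.664), or -0.0046 with upper-quartile normalization. Per library, the summed counts of H2-K1 and H2-D1 were 2.26, 2.35, 2.41 and 2.69 times those of B2m in MitolΔ/Δ and 2.60, 2.74, 2.70 and 2.84 times in control HSCs. The ratio in MitolΔ/Δ libraries 1 to 3 was below every control, and that of library 4 was within the control range (log2 difference -0.17, exact permutation test, 2-sided, p = 0.0571, and 0.114 after adjustment for the 4 ratios).

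H2-T23 encodes Qa-1b, a non-classical heavy chain that presents leader peptides of the classical chains to the NKG2A receptor of NK cells. It lies on chromosome 17 from 36340229 to 36345571. Its normalized counts were 1215, 1233, 1843 and 1797 in MitolΔ/Δ libraries 1 to 4 and 2101, 2058, 2064 and 2109 in control libraries 1 to 4. Every MitolΔ/Δ library was below every control library, and the MitolΔ/Δ libraries formed a low pair (1 and 2) and a pair nearer to the controls (3 and 4), whereas the controls lay within a narrow range. The means were 1522 ± 344 and 2083 ± 25.9 (SD, n = 4), a log2 fold change of -0.47 (standard error 0.138; 2-sided exact permutation test, p = 0.0286, the smallest p that 4 libraries against 4 allow). With edgeR the adjusted p was 0.0558, which did not pass the threshold, and over the alternatives that kept the 8 libraries it ran from 0.0219 (DESeq2) to 0.0627 (no expression filter). Without MitolΔ/Δ library 3 or 4 it passed (adjusted p = 0.0481 and 0.0185), and the log2 fold change stayed between -0.56 and -0.37 with each library left out in turn. Within a library, H2-T23 counts were 0.142, 0.140, 0.200 and 0.221 times those of B2m in MitolΔ/Δ and 0.257, 0.264, 0.240 and 0.253 times in control HSCs. This ratio was chosen after the values were seen, for a gene whose groups were already apart. It is therefore no separate support. Of its 75-base windows, 5.60% are shared with other genes, among them H2-T9, H2-T15 and H2-D1.

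MitolΔ/Δ libraries 1 and 2 also lay apart from libraries 3 and 4 in other genes. Tapbp had 2140 and 2122 against 2358 and 2395 normalized counts, and Socs3 had 629 and 700 against 1789 and 2177. Cell cycle genes differed between these libraries too, but libraries 3 and 4 were not alike in them. The summed normalized counts of 16 S and G2/M markers were 29187 and 29914 in MitolΔ/Δ libraries 1 and 2, 20935 and 14464 in libraries 3 and 4, and 9215 to 13579 in control libraries, and 12 of the 16 were higher in MitolΔ/Δ HSCs. The part of cell cycling in the H2-T23 counts was not tested. Red-cell markers were highest in MitolΔ/Δ library 3, where 11 genes summed to 5155, against 1065, 1141 and 2642 in MitolΔ/Δ libraries 1, 2 and 4 and 467.9 to 910 in control libraries. Within that list 1 of 5 tested genes, Hbb-bt, was higher (log2 fold change 1.29, adjusted p = 0.0442 in edgeR and 0.0503 in DESeq2, which called 0 of them).

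Tap1 and Tap2 encode the subunits of the transporter associated with antigen processing. Tap1, at 34405996 to 34416199 of chromosome 17, had 2279, 2321, 2273 and 2152 normalized counts in MitolΔ/Δ and 2681, 2406, 2437 and 2212 in control libraries (log2 fold change -0.13, edgeR adjusted p = 0.341). The groups overlapped through control library 4. Tap2, at 34422501 to 34435829, had 703, 795, 866 and 912 in MitolΔ/Δ and 856, 880, 844 and 890 in control libraries (log2 fold change -0.10, edgeR adjusted p = 0.555), with MitolΔ/Δ libraries 1 and 2 below and library 4 above every control. Counts of Tap1 were 2.79 ± 0.381 times those of Tap2 in MitolΔ/Δ and 2.81 ± 0.272 times in control HSCs (SD, n = 4; exact permutation test, 2-sided, p = 0.886, and 0.886 after adjustment for the 4 ratios). Exons of Psmb9 on the other strand cover 12.4% of the exon bases of Tap1.

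Tapbp encodes tapasin, which holds empty heavy chains at the transporter and edits their peptides. On chromosome 17 from 34134873 to 34148267, it had 2140, 2122, 2358 and 2395 normalized counts in MitolΔ/Δ and 2213, 2233, 2238 and 2373 in control libraries. The controls lay inside the range of the MitolΔ/Δ libraries (log2 fold change -0.02, 95% interval -0.20 to 0.15, edgeR adjusted p = 0.876). Exons of Zbtb22 on the same strand cover 20.9% of its exon bases and 14.1% of its 75-base windows are shared, so its reads may be split with that gene. Erap1, an ER aminopeptidase that trims peptides to the length class I molecules hold, lies on chromosome 13 from 74787687 to 74841320. It had 1587, 1552, 1423 and 1370 normalized counts in MitolΔ/Δ and 1325, 1246, 1471 and 1312 in control libraries, a log2 fold change of 0.13 (95% interval -0.06 to 0.32, edgeR adjusted p = 0.369). Together with B2m it was one of the pair of members above 0.

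Nlrc5, on chromosome 8 from 95160984 to 95253900, was the 1 member called. Its normalized counts were 3256, 3531, 3719 and 3875 in MitolΔ/Δ libraries 1 to 4 and 4585, 4231, 4790 and 4189 in control libraries 1 to 4. Every MitolΔ/Δ library was below every control library. The means were 3595 ± 267 and 4449 ± 289 (SD, n = 4), with a fitted log2 fold change of -0.33 (standard error 0.0847, 95% interval -0.51 to -0.14; edgeR adjusted p = 0.0367, 4 of 4 libraries; 2-sided exact permutation test, p = 0.0286). Counts of Nlrc5 were 0.379, 0.402, 0.404 and 0.477 times those of B2m in MitolΔ/Δ and 0.560, 0.542, 0.557 and 0.503 times in control libraries. This ratio too was chosen after the values were seen and is no separate support. The call was close to the threshold. It was kept without MitolΔ/Δ library 4 (adjusted p = 0.0199) and lost without any single one of the other 7 libraries (adjusted p from 0.0598 to 0.103), although the log2 fold change stayed between -0.35 and -0.28. Of the 8493 exon bases of Nlrc5, 0.918% lie under a gene of the other strand, and none of its 75-base windows is shared.

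The remaining heavy chains were described from a list of 34 class I and class I-like genes, of which 17 were in the table and 15 tested. Of the 15, 5 were lower and 0 higher in MitolΔ/Δ HSCs, where 3.75% and 4.68% of all tested genes were called, and 13 of the 15 were below 0. The median log2 fold change was -0.44. Groups did not overlap for 8 genes, each of them lower, against 15.4% of all tested genes in either direction. At an unadjusted edgeR p under 0.05 there were 11 lower and 0 higher genes, where 12.8% and 13.6% of all tested genes were. DESeq2 called 5 as lower and 0 as higher, where it called 5.78% and 8.14% of all tested genes. The list's summed normalized counts were 4637, 4710, 4820 and 5158 in MitolΔ/Δ and 6197, 6333, 6589 and 6821 in control libraries. The number called fell to 1 without control library 4 or MitolΔ/Δ library 1, and to 2 without control library 2 or MitolΔ/Δ library 2 or 3.

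H2-Q5, a non-classical chain of the Qa region, had 362, 501, 471 and 479 normalized counts in MitolΔ/Δ and 658, 845, 778 and 820 in control libraries, and was called in 8 of the 8 fits that left out 1 library (log2 fold change -0.80, edgeR adjusted p = 0.00634). H2-Q6 had 160, 213, 211 and 169 in MitolΔ/Δ and 297, 252, 355 and 346 in control libraries (log2 fold change -0.75, edgeR adjusted p = 0.0183, 6 of 8 fits). H2-Q4, which encodes Qb-1, had 1398, 1374, 1613 and 1787 in MitolΔ/Δ and 2111, 1888, 2188 and 1957 in control libraries (log2 fold change -0.42, edgeR adjusted p = 0.0301, 1 of 8 fits). For each of these 3 genes, every MitolΔ/Δ library was below every control library. Part of their sequence is ambiguous, with 25% of the 75-base windows of H2-Q5, 15.9% of those of H2-Q6 and 12.9% of those of H2-Q4 found in other genes, H2-Q7 and H2-Q10 among them, so reads may have been split with those genes in counting. H2-Q5, H2-Q6 and H2-Q4 also share windows with each other, so their counts may not be independent. H2-Q7, which encodes Qa-2, had a log2 fold change of -0.34 (edgeR adjusted p = 0.116).

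H2-T24 had 380, 425, 393 and 506 normalized counts in MitolΔ/Δ and 601, 589, 519 and 725 in control libraries (log2 fold change -0.54, edgeR adjusted p = 0.0309, 3 of 8 fits), with 4.46% of its windows shared. Cd1d1, a class I-like molecule that presents lipids to NKT cells, had 282, 241, 347 and 346 in MitolΔ/Δ and 397, 504, 449 and 693 in control libraries. Its log2 fold change was -0.77 (edgeR adjusted p = 0.0272, 3 of 8 fits), with 11.7% of its windows shared with Cd1d2. The groups of H2-T24 and of Cd1d1 did not overlap. H2-T22 was at 334, 320, 322 and 318 in MitolΔ/Δ and 443, 405, 447 and 339 in control libraries (log2 fold change -0.35, edgeR adjusted p = 0.0791), and H2-M3, which presents formylated peptides, had a log2 fold change of -0.15 (edgeR adjusted p = 0.422). The one listed gene with a log2 fold change above 0.1 was Ulbp1, an NKG2D ligand (0.34, edgeR adjusted p = 0.312).

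**Figure D3:**
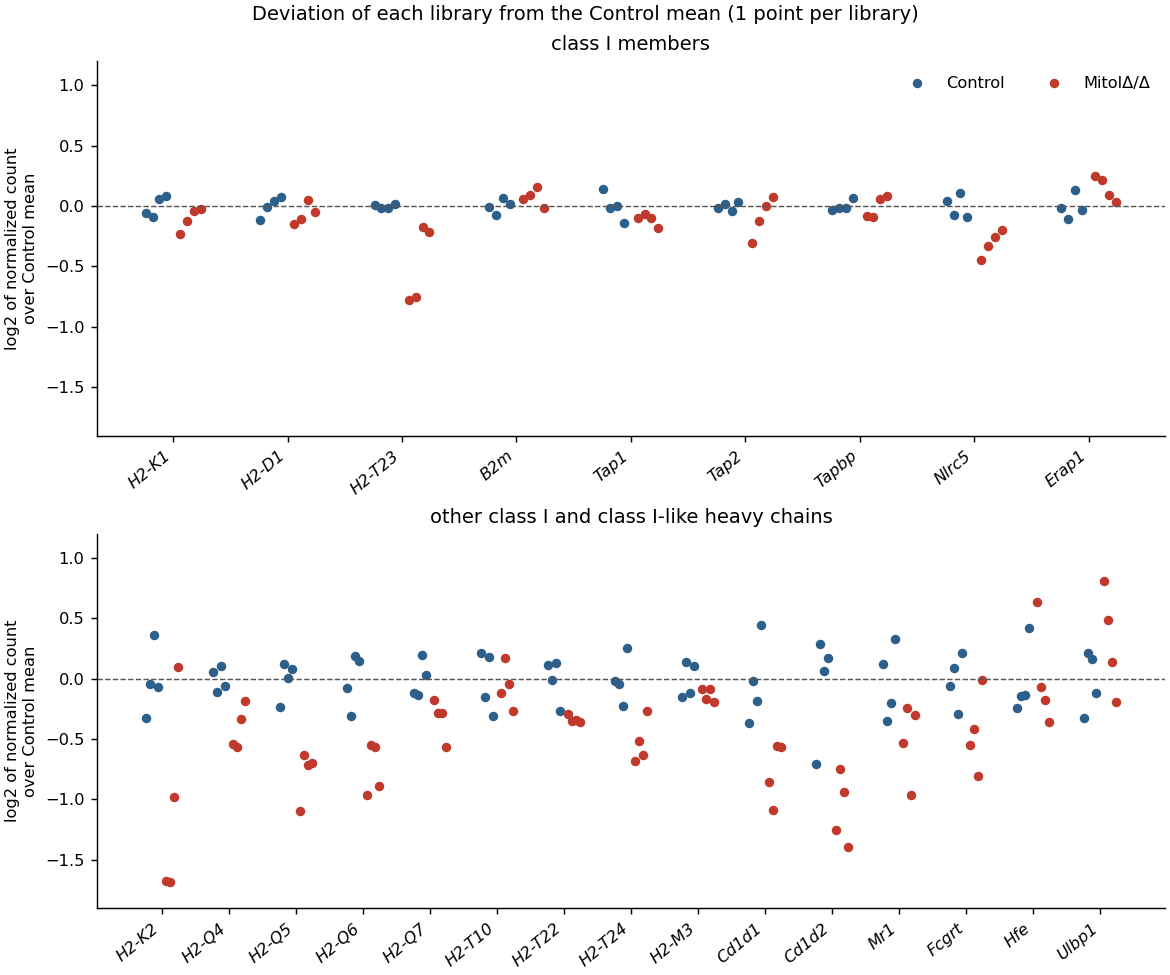
Log2 ratio of each library's normalized count to the control mean of that gene, 1 point per library, for the 9 members (top) and the 15 other tested heavy chains (bottom), control in blue and MitolΔ/Δ in red. Points of 7 members stay within 0.35 of 0, and H2-T23, Nlrc5 and the H2-Q genes have every MitolΔ/Δ library below every control library.

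The promoters of the called H2-Q genes for which RefSeq windows were given are shown with the same capitals, for comparison with H2-K1 and H2-D1.
H2-Q4 (chr17:35379417-35379616, plus strand): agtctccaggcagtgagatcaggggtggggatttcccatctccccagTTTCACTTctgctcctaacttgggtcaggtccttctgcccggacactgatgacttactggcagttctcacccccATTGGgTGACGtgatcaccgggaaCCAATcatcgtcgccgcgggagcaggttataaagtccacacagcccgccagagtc
H2-Q6 (chr17:35424650-35424849, plus strand): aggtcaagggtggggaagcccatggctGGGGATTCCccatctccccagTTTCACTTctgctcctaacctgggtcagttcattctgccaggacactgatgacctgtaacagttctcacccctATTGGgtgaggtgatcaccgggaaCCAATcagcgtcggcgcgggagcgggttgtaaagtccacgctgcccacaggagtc
Both had the IRF element and Y boxes near the positions seen in H2-D1, at 153, 79 and 55 bases before the start in H2-Q4 and at 152, 79 and 55 in H2-Q6. The NF-κB letters were present in H2-Q6 and not in H2-Q4. The X2 letters stood 73 bases before the start of H2-Q4, after its first Y box, and were not found in H2-Q6. Of the 34 other heavy chains listed, 19 had a window, and 2 of these held the NF-κB site, 14 the IRF element, 8 the X2 core and 13 the Y box.

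Among 25 transcription factors and cofactors known to act on class I promoters, edgeR called 3 as lower, among them Irf1 and Irf2, and 1 as higher. Over all tested genes, 3.75% were called lower and 4.68% higher in MitolΔ/Δ HSCs. The median log2 fold change of the 25 was 0.08. Irf1, an activator induced by interferon, had 854, 608, 723 and 806 normalized counts in MitolΔ/Δ and 1067, 1082, 1519 and 1187 in control libraries. All MitolΔ/Δ libraries were below all controls, and the change was called in each of the 8 fits that left out 1 library (log2 fold change -0.72, standard error 0.137, edgeR adjusted p = 0.0136). Irf2, which binds the same elements as Irf1, had 1065, 1024, 889 and 1159 in MitolΔ/Δ and 1424, 1190, 1249 and 1450 in control libraries (log2 fold change -0.38, edgeR adjusted p = 0.0434), and was called in 1 of the 8 fits and not with DESeq2 size factors (adjusted p = 0.0520) or without the expression filter (0.0652). Ezh2, the methyltransferase of a repressive histone mark, was higher, with 1271, 1256, 958 and 792 in MitolΔ/Δ and 671, 701, 718 and 638 in control libraries (log2 fold change 0.63, edgeR adjusted p = 0.0209, 4 of 8 fits). Its highest libraries, MitolΔ/Δ 1 and 2, were also the highest in S and G2/M markers. Rfx5, a subunit of the factor on the X1 box, had a log2 fold change of -0.24 (edgeR adjusted p = 0.211). Exons of other genes on the opposite strand cover 46.0% of the exon bases of Irf1.

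Irf1 is itself interferon-induced, and other interferon-stimulated genes lay on both sides of 0. Of 36 such genes, edgeR called 0 as lower and 3 as higher, against 3.75% and 4.68% of all tested genes. DESeq2 called 3 as lower and 3 as higher, against 5.78% and 8.14%. At an unadjusted edgeR p under 0.05, 6 of the listed genes were lower and 5 higher, and their median log2 fold change was -0.04. Those called by edgeR were Ifitm3 (log2 fold change 0.59, adjusted p = 0.00381), Ly6e (0.35, adjusted p = 0.0311) and Ifitm1 (0.63, adjusted p = 0.0386), membrane proteins of which the IFITM pair restricts virus entry. Ifitm3 was called in 8 of the 8 fits that left out 1 library, Ly6e in 4 and Ifitm1 in 3. The groups of Ifitm1 overlapped, and with upper-quartile normalization Ly6e was not called (adjusted p = 0.0642). Of 13 tested genes for interferon receptors and their signalling, 2 were higher. Socs3, a feedback inhibitor of cytokine receptors, had 629, 700, 1789 and 2177 normalized counts in MitolΔ/Δ and 194, 262, 260 and 43.1 in control libraries (log2 fold change 2.80, edgeR adjusted p = 0.0107), and Ifnar2, a chain of the type I interferon receptor, had a log2 fold change of 0.43 (edgeR adjusted p = 0.0305). Of 4 tested genes for the turnover of class I molecules, 0 were called by edgeR or DESeq2 and 0 had an unadjusted edgeR p under 0.05.

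Proteasomes were compared by their catalytic subunits, because the interferon-inducible subunits Psmb8, Psmb9 and Psmb10 replace Psmb5, Psmb6 and Psmb7 in the immunoproteasome. Of 8 genes of the immunoproteasome and its activators, 0 were called by edgeR or DESeq2 (2 were higher at an unadjusted edgeR p under 0.05), with log2 fold changes of 0.18 for Psmb8, 0.01 for Psmb9, 0.08 for Psmb10, 0.22 for Psme1 and 0.46 for Psme2 (adjusted p from 0.098 to 0.961). Psmb5 was higher, with 159, 177, 162 and 140 normalized counts in MitolΔ/Δ and 80.4, 88.3, 98.9 and 62.9 in control libraries (log2 fold change 0.93, edgeR adjusted p = 0.0157, 8 of 8 fits). Psmb6 and Psmb7 had log2 fold changes of 0.37 and 0.31 (edgeR adjusted p = 0.0815 and 0.248). DESeq2 called Psmb6 (adjusted p = 0.0408) and not Psmb7 (0.22). Exons of Nek6 on the other strand cover 46.8% of the exon bases of Psmb7, and those of Tap1 cover 19.6% of Psmb9. The counts of the 3 inducible subunits were 1.63, 1.68, 1.75 and 2.01 times those of the 3 constitutive ones in MitolΔ/Δ and 2.45, 2.20, 2.10 and 2.15 times in control libraries. The groups did not overlap (log2 difference -0.33, 2-sided exact permutation test, p = 0.0286), but adjusted over the 4 ratios p was 0.114, and with 1 ratio at the smallest p an adjusted value under 0.05 could not be reached.

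**Figure D4:**
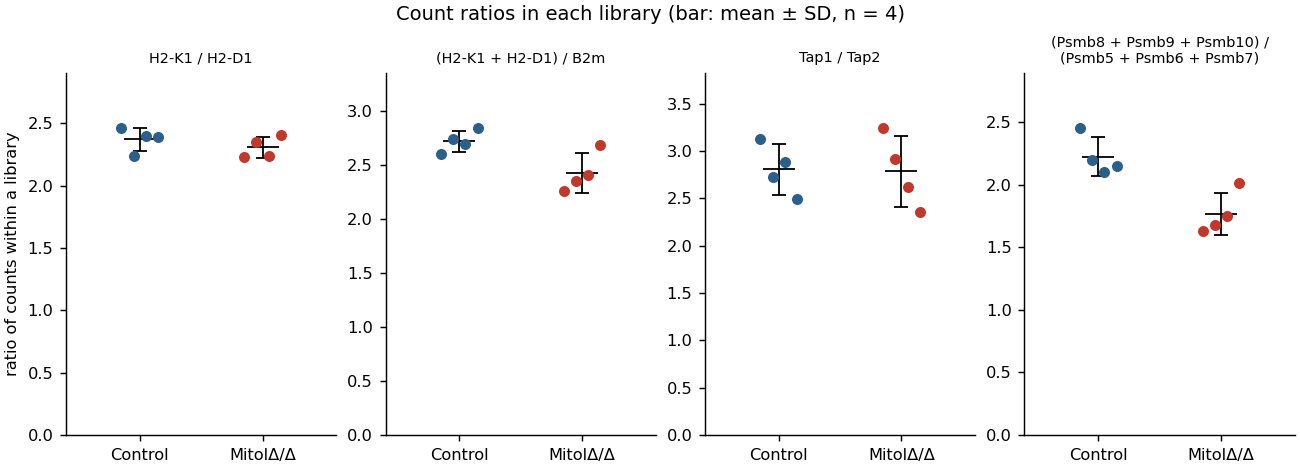
Ratio of counts within each library for the 4 ratios tested, with points for libraries 1 to 4 from left to right and bars for the mean and SD of 4 libraries. The ratio of inducible to constitutive proteasome subunits lies between 1.63 and 2.01 in MitolΔ/Δ and between 2.10 and 2.45 in control libraries, and the other ratios overlap.

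Peptide loading needs chaperones and folding enzymes of the ER. Of 12 genes for ER chaperones, folding enzymes and translocon subunits, edgeR called 1 as higher and 0 as lower, and DESeq2 4 and 0. Over all tested genes, edgeR called 4.68% as higher and 3.75% as lower, and DESeq2 8.14% and 5.78%. Of the 12, 7 were higher and 1 lower at an unadjusted edgeR p under 0.05, with a median log2 fold change of 0.25. The gene called was Sec61a1, the channel of the translocon (log2 fold change 0.37, edgeR adjusted p = 0.0494, 2 of 8 fits). Calr, the chaperone calreticulin, had 3978, 4470, 4022 and 3969 normalized counts in MitolΔ/Δ and 3799, 2552, 3279 and 2842 in control libraries (log2 fold change 0.38, edgeR adjusted p = 0.0572). Its groups did not overlap, and DESeq2 called it (adjusted p = 0.0174) where edgeR did not. Canx, Pdia3 and Tapbpl (calnexin, ERp57 and the tapasin relative TAPBPR) had log2 fold changes of 0.28, 0.35 and -0.26 (edgeR adjusted p = 0.101, 0.173 and 0.149). Among 7 tested peptidases of the cytosol and other compartments, Thop1, which degrades class I peptides, was higher, with 733, 912, 687 and 617 in MitolΔ/Δ and 477, 410, 500 and 340 in control libraries (log2 fold change 0.75, edgeR adjusted p = 0.0149, 7 of 8 fits).

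**Figure D5:**
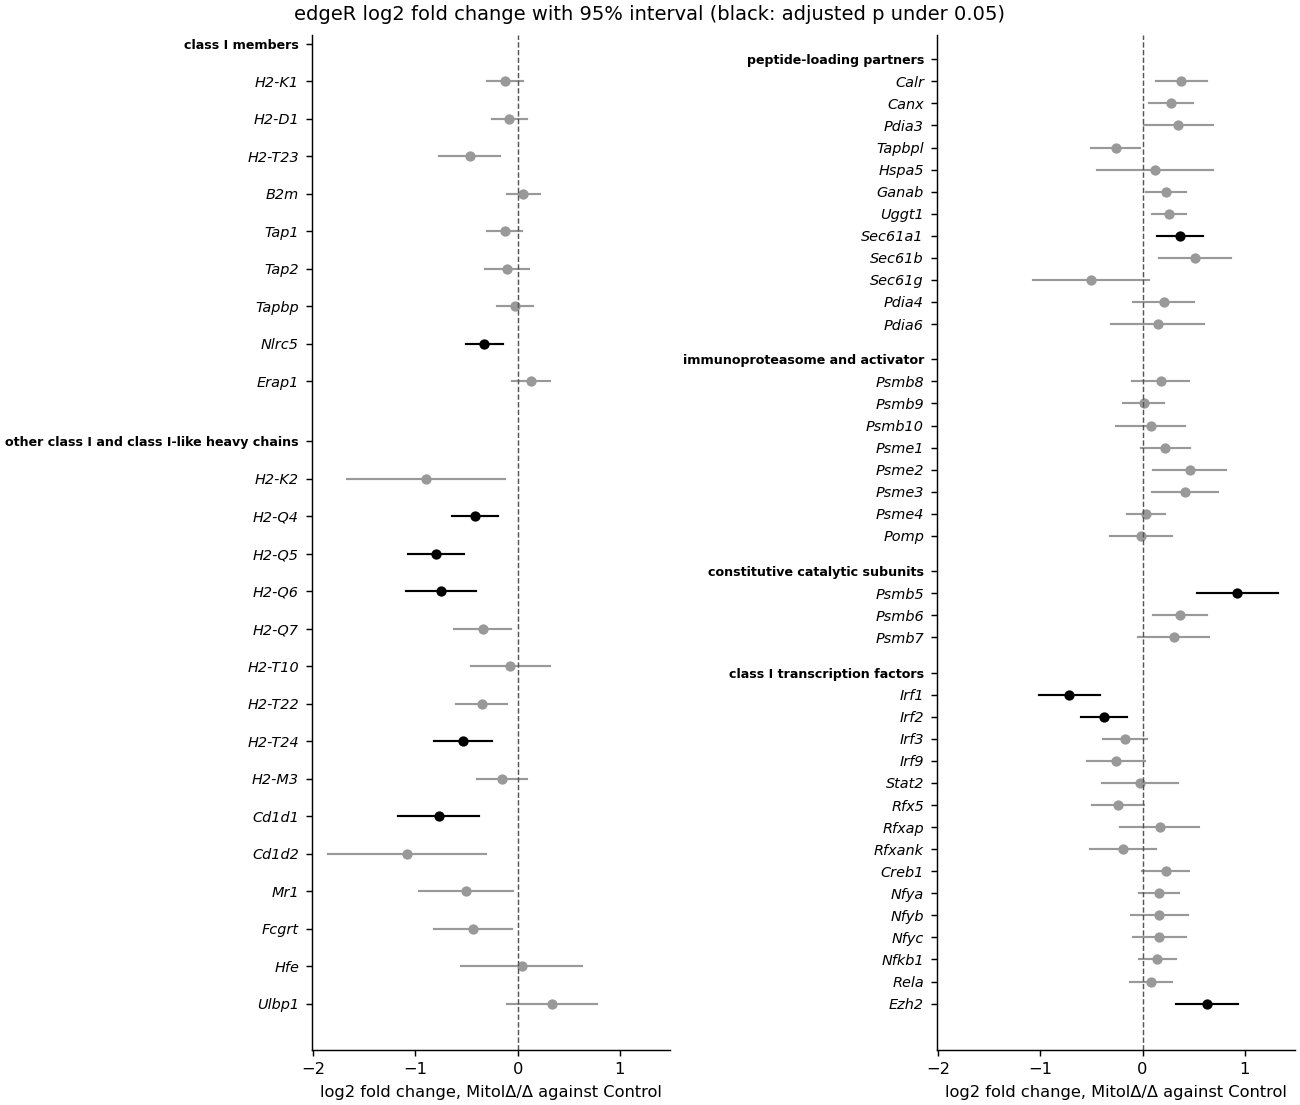
edgeR log2 fold change of MitolΔ/Δ against control HSCs with its 95% interval for the members and other heavy chains (left) and for loading partners, proteasome subunits and 15 of the 25 transcription factors (right), with genes past the adjusted threshold in black. The called heavy chains, Nlrc5, Irf1 and Irf2 lie left of 0, and Sec61a1, Psmb5 and Ezh2 lie right of it.

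Members moved together across libraries to different degrees. After each group was centred on its mean, over the 8 libraries (which share depth and composition), Pearson's r was 0.82 for H2-K1 with H2-D1, 0.91 for H2-T23 with Tapbp, 0.88 for H2-T23 with Tap2 and 0.70 for H2-T23 with Nlrc5, but -0.48 for H2-K1 with Tap1 and -0.63 for H2-T23 with Erap1. H2-T23 had a coefficient of variation of 1.24% in control and 22.6% in MitolΔ/Δ libraries, so its r values rest mainly on the MitolΔ/Δ libraries. Among 11836 genes with at least 50 mean normalized counts, those most like the mean standardized level of the members over the 8 libraries were Txlng (r = 0.98), 4833422C13Rik (0.97, row X4833422C13Rik), Arhgap6 (0.96), Dmtf1 (0.95) and Phactr1 (0.95), and 0 of these 5 were called by edgeR. After centring by group they were Lefty1, Npas2, Txlng, Mrrf and Gm45293, with r from 0.95 to 0.98. Genes picked as the highest of 11836 over 8 libraries have high r by selection.

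Markers of other cells that express class I molecules were also counted. The flow cytometry of the study defined long-term HSCs as lineage-negative, c-Kit+ EPCR+ cells that were CD48- and CD150+, with CD4, CD8a, B220, Gr-1, Mac-1 and Ter-119 as the lineage antigens, a gate that removes most T, B, myeloid and red cells. The gate of the RNA-seq sort itself is not spelled out in the sources used here. Of 14 T-cell and NK-cell markers 4 were in the table and 1 of 3 tested, Nkg7, was higher (log2 fold change 1.05, edgeR adjusted p = 0.0144). The list summed to between 259.8 and 425.3 normalized counts in MitolΔ/Δ and between 169.6 and 227.7 in control libraries, while Cd3e, Cd3g, Trac, Trbc1 and Ncr1 were absent from the table. B-cell markers summed to between 142.8 and 153.4 in MitolΔ/Δ and between 154.5 and 234.7 in control libraries, with Ms4a1, Pax5 and Ebf1 absent. Macrophage, monocyte and dendritic-cell markers lay between 1883 and 2003 in MitolΔ/Δ and between 1816 and 2088 in control libraries, neutrophil markers between 485.3 and 1023 and between 405 and 615.9, and endothelial and stromal markers between 978.9 and 1727 and between 1091 and 1279. Of the tested genes of the last 4 lists, 0 were called by edgeR. DESeq2 called 1 macrophage-list gene as lower and 1 neutrophil gene as higher, and the same numbers had an unadjusted edgeR p under 0.05. The part of other cells in the class I counts was not tested.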

How the data were processed

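RNA was measured in 8 libraries of 100 sorted HSCs. The authors aligned 75-base single-end reads with STAR to mm39, merged files with SAMtools, assigned reads to genes with Subread and deposited raw counts. The annotation, strand setting and treatment of reads with several matches are not given in the sources used here. Of 23094 rows, 1029 without a gene symbol (0.335% to 0.467% of counts) stayed out. Each row had at least 11 counts.

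Counts were tested with edgeR 4.0.16 (R 4.3.3; quasi-likelihood, TMM, filterByExpr, condition alone, Benjamini-Hochberg over 16444 genes), after tests on simulated data. DESeq2 1.42.0 gave size factors and an alternative test. Exact permutation tests of log2 values (pseudocount 1 for single genes, none for ratios) used 70 arrangements and were not adjusted over the members. Named genes were the members, Marchf5, listed genes past the threshold (up to 5 per list by p), fixed pathway genes and the 5 most like the members. H2-Q7, H2-T22, H2-M3, Ulbp1, Slamf1, Ly6a, Cd74, Clec9a, Cd79a and Ighm were added after their values were seen. Some listed genes are not reported here. Members and lists were chosen with earlier results of these data known. Ratios to B2m of Nlrc5 and H2-T23 were added after seeing the data and are given as values. With 4 libraries per group and no molecular identifiers, depth overstates the precision. Positions came from GENCODE vM39 (GRCm39), with 20699 of 22065 symbols matched, and promoters from RefSeq (GRCm38.p6).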

Additional observations from a re-analysis of the deposited data

Results flagged for a closer look

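In 4 of 98 groups of 4 libraries examined, 1 library stood apart from the others of its group by Dixon's criterion, where chance gives about 1 in 20. Tapbp was at 2373 normalized counts in control library 4, above the other controls at 2213, 2233 and 2238. Calr was at 4470 in MitolΔ/Δ library 2, with the others between 3969 and 4022. Psmb9 was at 839.4 in MitolΔ/Δ library 3, below 931, 921 and 922. H2-Aa, a class II chain, was at 414.9 in control library 4, above 167, 157 and 188.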

How the results depend on the processing

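The members' count called was 2 with DESeq2, with upper-quartile normalization and at an adjusted p of 0.10 (H2-T23 beside Nlrc5), and ran from 0 to 2 with each library left out. Over all genes, DESeq2 called 2315, the threshold of 0.10 gave 2585, and leaving out 1 library gave 359 (without control library 2) to 2501 (without MitolΔ/Δ library 4). Upper-quartile normalization moved the members' median to -0.16 and that of all genes to -0.08, and the share of calls that were higher from 55.6% to 41.3%. Leaving out 1 library kept the median between -0.12 and -0.05. The log2 differences of the ratios then lay between -0.07 and -0.02 for H2-K1 to H2-D1, -0.22 and -0.13 for the sum of both to B2m, -0.09 and 0.06 for Tap1 to Tap2, and -0.40 and -0.29 for the proteasome. The other heavy chains called, an alternative added after seeing the data, were 1 to 7 with 1 library left out.

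Replicate numbers did not pair the libraries: same-numbered libraries correlated at 0.08, -0.07, 0.05 and 0.07 in their deviations from the group means. With the number as a replicate block, 1652 genes and 1 member were called, H2-T23 (adjusted p = 0.034) in place of Nlrc5 (0.0504). With the block, the ratios had adjusted p of 0.25 or more, but an exact test of 4 pairs cannot pass 0.05 whatever the values. No called member or listed gene changed sign in these alternatives. The lowest count of a member in a library was 649. Levels per coding kilobase from RefSeq proteins were not run, since no protein table was used here, and GENCODE coding lengths took their place.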

Other observations

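Some class II genes, which present peptides from outside the cell, were also lower. Of 10 tested, 4 were lower and 0 higher in MitolΔ/Δ HSCs by edgeR, 6 and 0 by DESeq2, and 8 and 0 at an unadjusted edgeR p under 0.05. Over all tested genes, edgeR called 3.75% as lower and 4.68% as higher, and DESeq2 5.78% and 8.14%. The median log2 fold change of the 10 was -0.96. Ciita, the class II coactivator and a relative of Nlrc5, had 61.0, 43.6, 85.1 and 60.3 normalized counts in MitolΔ/Δ and 153, 186, 135 and 219 in control libraries (log2 fold change -1.48, edgeR adjusted p = 0.00653), and was called in 8 of the 8 fits that left out 1 library. H2-Aa, H2-DMb2 and H2-Ab1 had log2 fold changes of -2.10, -1.47 and -1.003 (edgeR adjusted p = 0.0154, 0.0413 and 0.0492). The list summed to 1419 to 1680 normalized counts in MitolΔ/Δ and to 2081, 2050, 2005 and 3712 in control libraries, the highest being control library 4, where Cd74, the invariant chain, had 1436 against 321 to 451 in the other 7 libraries. Clec9a, Cd79a and Ighm, markers of cells rich in class II, were picked after their values were seen. Clec9a, of dendritic cells, had 3.13, 17.7, 13.7 and 12.7 in MitolΔ/Δ and 11.9, 33.0, 41.4 and 115 in control libraries (log2 fold change -2.14, adjusted p = 0.0574 in edgeR and 0.012 in DESeq2). Its groups overlapped, with control library 1 below MitolΔ/Δ libraries 2, 3 and 4. By log2 fold change, Clec9a was the lowest of the 6 tested genes of the macrophage, monocyte and dendritic-cell list. Of those genes 4 were above 0, and their median log2 fold change was 0.25. Cd79a, of B cells, had 0 to 2.75 in MitolΔ/Δ and 3.19 to 17.9 in control libraries, and Ighm 0 in each MitolΔ/Δ library and 0 to 7.18 in control libraries, both too low to be tested. The part of such cells in the class II counts was not tested. With the call of H2-Ab1 kept in 1 and that of H2-DMb2 in 2 of those 8 fits, Ciita and H2-Aa (8 of 8) were the calls that held.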
